A study of Mus musculus with 16 samples.

Results

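Non-metastatic 67NR cells were compared after treatment with the cPLA2α inhibitor CIX or with vehicle, which used 8 of the 16 samples sequenced, chosen by their cell line label, and 11583 of the 33072 genes in the deposited table. 67NR and 4T1 are cell lines of 1 spontaneous mammary carcinoma of a BALB/c mouse, and 67NR cells form primary tumors without metastases. The groups were 67NR cells with vehicle (DMSO), in samples 1, 5, 9 and 13, and 67NR cells with 15 µM CIX, in samples 2, 6, 10 and 14, both treated for 24 h at 1 dose and 1 time point. Culture medium in the study's methods contained serum, and its RNA sequencing methods do not name the medium used during treatment. The samples of a group were biological replicates by the study's methods, and no label says how the cultures were kept apart. Each group was 1 cell line in culture. 4T1 cells, the metastatic line, had been treated in the same way with 4 samples in each group, and they enter below only where the response of 67NR cells was tested against theirs.

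Cytosolic phospholipase A2α, encoded by Pla2g4a, releases arachidonic acid from membrane phospholipids. Cyclooxygenases, encoded by Ptgs1 and Ptgs2, turn it into prostaglandin H2, from which synthases such as Ptges make prostaglandin E2, a lipid known to support growth and migration of tumor cells. The comparison asks which transcripts respond to CIX, an inhibitor of this enzyme, in cells that do not metastasize. RNA measures transcript levels, and enzyme activity and lipids were not part of these data.

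The total estimated count per sample lay between 21811766 and 24656898 with vehicle and between 21715700 and 26361330 with CIX. Levels are given below as CPM, counts scaled to a common library size with TMM factors, in the order of the sample numbers above. The first principal component held 35.4% of the variance of the 67NR samples and separated CIX from vehicle, and the second, with 25%, set vehicle sample 13 apart. In that sample 183 genes lay at least 1 on the log2(CPM + 1) scale above all other 67NR samples, whereas at most 6 did so in any other sample. In CIX sample 10 the mitochondrial genes took 0.377% of the counts, against 1.14% to 1.76% in the other 67NR samples. The 14 epithelial markers together reached 2.48 to 7.56 CPM with vehicle and 1.92 to 5.60 CPM with CIX, and Epcam and Cdh1 stayed below 1 CPM in each sample, so that defining epithelial transcripts were absent or nearly so from this line labelled as a carcinoma. Of the 14 fibroblast and mesenchymal markers 11 were tested, and the summed level of the list was 12686 to 15250.0 CPM and 13809 to 14757 CPM. Of the tested ones 2 rose at a limma-voom adjusted p below 0.05, Vim and Pdgfra, and 3 fell, Pdgfrb, Sparc and S100a4 (2 to 3 and 2 to 3 without single samples). Among all tested genes 8.5% rose and 9.25% fell, and the median log2 fold change of the list was -0.12. Vim, an intermediate filament, went from 4755 to 5478 CPM to 7396 to 8432 CPM (log2 fold change 0.58, adjusted p = 0.00134). Of the 10 leukocyte markers only Cd68 and Lyz2 reached a mean of 1 CPM. The summed level moved from 9.68 to 14.5 CPM to 36.8 to 42.7 CPM, of which Cd68, described below, made up most. Lyz2 moved the other way, by -0.75 on the log2 scale, and all its CIX samples lay below its vehicle samples. It did not pass 0.05 in limma-voom (adjusted p = 0.0685). The summed levels of the endothelial and adipocyte markers stayed at or below 10.1 CPM, and in each of the leukocyte, endothelial and adipocyte lists at most 2 genes were tested.

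CIX changed 45 genes (0.389% of those tested) at an adjusted p below 0.001 in limma-voom with Benjamini-Hochberg adjustment, the threshold used by the study, of which 21 (0.181%) rose and 24 (0.207%) fell. At an adjusted p below 0.05, 985 genes (8.5%) rose and 1071 (9.25%) fell. The median log2 fold change of all tested genes was -0.0063, and the median absolute log2 fold change was 1.18 among the 45 genes and 0.48 among the 2056 called at 0.05. In each of the 45 genes the CIX and vehicle ranges were apart, which held for 24.0% of the tested genes. The number called at 0.001 changed with each sample left out. In limma-voom it was 0 without vehicle sample 5 or 9 or CIX sample 6, 10 or 14, with 3237 to 3395 genes at an unadjusted p below 0.05, and it was 2, 16 and 75 without vehicle sample 1, vehicle sample 13 and CIX sample 2. All 45 genes stayed below 0.05 with the same direction in each of these 8 fits, and groups of genes are therefore counted at 0.05 below.

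**Figure D1:**
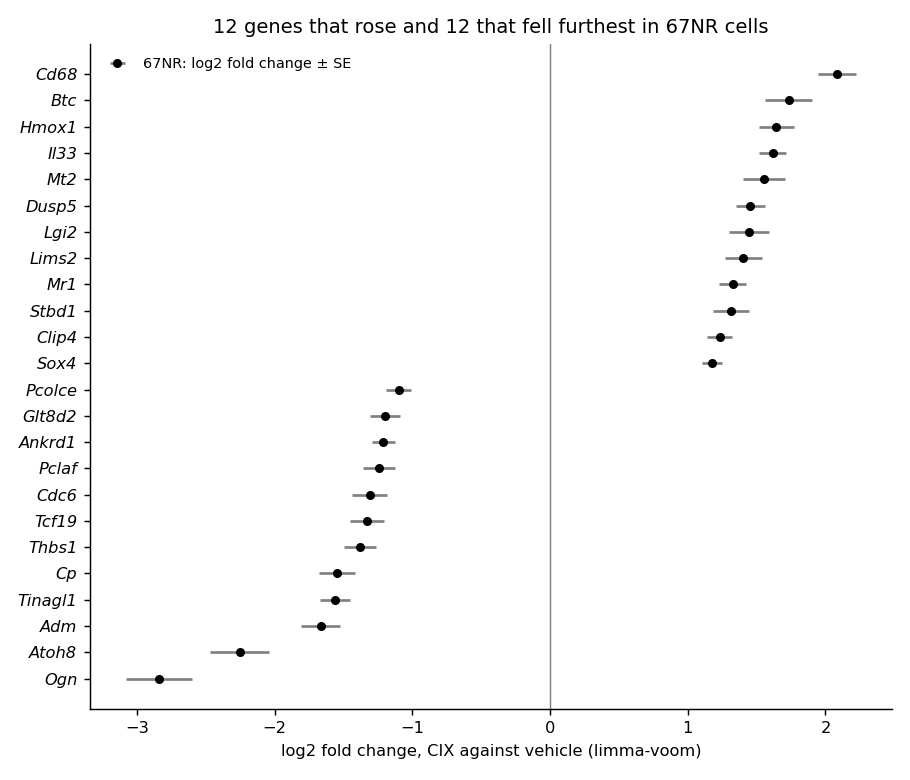
Log2 fold change of CIX against vehicle in 67NR cells (horizontal axis, points) with its standard error (bars) for the 12 largest rises and the 12 largest falls among genes called at an adjusted p below 0.001. The changes run from -2.84 for Ogn to 2.08 for Cd68.

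Among the genes called at 0.001 that rose, Cd68 changed most. Cd68 (ENSMUSG00000018774, chromosome 11, 69664213 to 69666153) encodes a glycoprotein of lysosomes that is used as a marker of macrophages. It was at 11.9, 8.09, 7.64 and 8.34 CPM with vehicle and at 39.7, 40.7, 35.0 and 35.6 CPM with CIX, so that the lowest CIX sample lay far above the highest vehicle sample (log2 fold change 2.08, SE 0.14, adjusted p = 2.96e-04). The pan-leukocyte gene Ptprc was at or near 0 in all 8 samples, with at most 0.125 CPM. Btc, which encodes the EGF receptor ligand betacellulin, rose from 24.6 ± 5.66 CPM to 81.0 ± 11.9 CPM after CIX (SD, n = 4; log2 fold change 1.73, adjusted p = 9.06e-04). Hmox1, the heme oxygenase, was at 12.5, 11.6, 10.4 and 10.4 CPM and at 31.2, 31.5, 41.5 and 37.1 CPM (log2 fold change 1.64, adjusted p = 4.12e-04), and the groups did not overlap. Il33, an alarmin cytokine, rose from 10.3 ± 1.17 CPM to 31.5 ± 1.43 CPM after CIX (SD, n = 4; log2 fold change 1.62, adjusted p = 2.96e-04). Mt2, a metal-binding metallothionein, and Dusp5, a nuclear phosphatase of ERK, rose by log2 fold changes of 1.55 and 1.45.

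A further 6 of the 12 largest rises had log2 fold changes between 1.18 and 1.44. They were Lgi2, which encodes a secreted leucine-rich repeat protein, Lims2, an adaptor of focal adhesions, Mr1, which presents vitamin B metabolites to T cells, Stbd1, which binds glycogen, Clip4, of the microtubule-binding CAP-Gly family, and the transcription factor Sox4. Sox4 went from 45.4, 43.9, 44.8 and 40.7 CPM to 89.5, 99.0, 102 and 105 CPM (log2 fold change 1.18, adjusted p = 2.96e-04). The spread within each group was small against the difference.

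Genes of the extracellular matrix and of the cell cycle were among the genes that fell furthest. Ogn (ENSMUSG00000021390, chromosome 13, 49608046 to 49624501), which encodes the small matrix proteoglycan osteoglycin, fell from 18.5, 14.5, 16.5 and 18.1 CPM to 4.08, 1.79, 2.13 and 1.82 CPM (log2 fold change -2.84, SE 0.24, adjusted p = 5.29e-04). Thbs1, encoding thrombospondin 1, fell from 196 ± 23.8 CPM to 75.6 ± 10.2 CPM after CIX (SD, n = 4; log2 fold change -1.38, adjusted p = 5.81e-04). The matricellular gene Tinagl1 fell from 342 ± 33.6 CPM to 116 ± 15.4 CPM after CIX (SD, n = 4; log2 fold change -1.56, adjusted p = 2.98e-04). Pcolce, whose product helps to process procollagens, fell by 1.10 on the log2 scale. Adm, the vasodilator peptide adrenomedullin and a target of hypoxia signaling, was at 46.6, 53.8, 55.0 and 43.2 CPM with vehicle and at 16.5, 19.5, 13.1 and 13.6 CPM with CIX (log2 fold change -1.67, adjusted p = 5.29e-04). Cp, the copper-containing ferroxidase ceruloplasmin, fell by 1.55, and Atoh8, a bHLH transcription factor, by 2.25 from a low level of 5.38 to 7.55 CPM. Cdc6, Pclaf and Tcf19 are genes of proliferating cells, and Ankrd1 is a target of YAP. They fell by 1.31, 1.25, 1.33 and 1.21 on the log2 scale. The last of the 12, Glt8d2, encodes a glycosyltransferase and fell by 1.20.

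**Figure D2:**
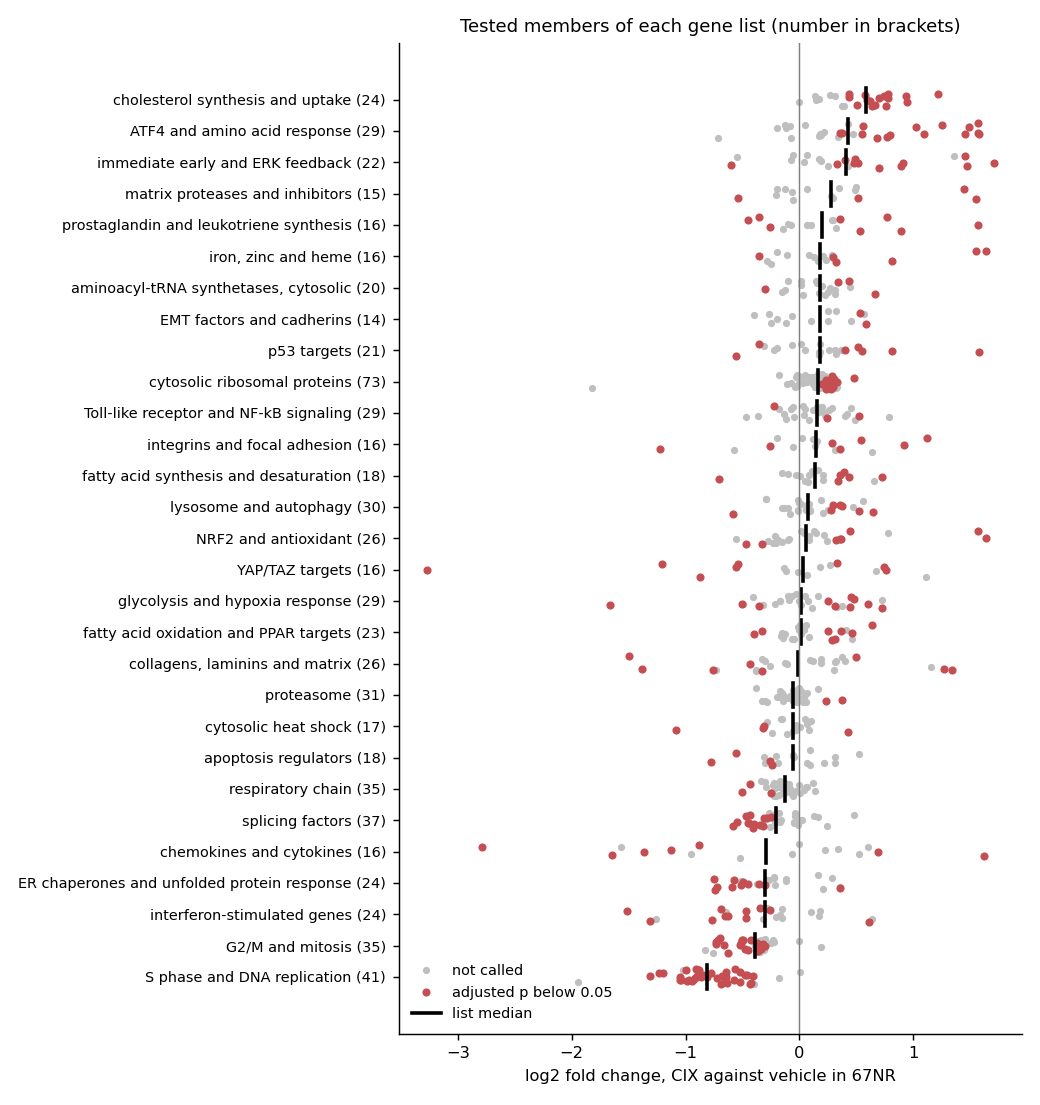
Log2 fold change of CIX against vehicle in 67NR cells (horizontal axis) of each tested member of the 29 gene lists (rows, with the number of tested members), in red where the adjusted p was below 0.05, with the median of the list as a black bar. The medians run from -0.81 for S phase and DNA replication to 0.59 for cholesterol synthesis and uptake.

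The S phase and DNA replication genes formed the group with the lowest median. Before S phase the origins of replication are licensed by the loading of the MCM2-7 helicase with the help of Cdc6 and Cdt1, and many of these genes are known targets of E2F transcription factors. Of 41 tested members, 36 fell and 0 rose at 0.05, where 9.25% of all tested genes fell, and the median log2 fold change was -0.81. The 36 genes were counted with all samples, 37 fell without vehicle sample 13 and 34 without CIX sample 10. As a mean over the members on the log2(CPM + 1) scale, the CIX samples 2, 6, 10 and 14 lay at -0.54, -0.72, -0.94 and -0.86 relative to the vehicle mean, and the vehicle samples at 0.055, -0.057, -0.007 and 0.0097. No CIX sample reached the vehicle range, and sample 2 came closest to it.

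The genes that fell served licensing, the helicase, the clamp and nucleotide supply. Cdc6 (ENSMUSG00000017499, chromosome 11, 98907801 to 98923940) was at 64.5, 66.5, 68.2 and 56.7 CPM with vehicle and at 32.9, 25.1, 23.8 and 21.9 CPM with CIX (log2 fold change -1.31, SE 0.13, adjusted p = 7.87e-04). Of the 6 subunits of the helicase 5 fell, by log2 fold changes from -1.04 to -0.65, among them Mcm5 (log2 fold change -0.97, adjusted p = 0.00273). The other, Mcm2, was at 202, 228, 219.5 and 719 CPM and at 187, 156, 141 and 103 CPM (log2 fold change -1.02, adjusted p = 0.11), where vehicle sample 13 set the spread. Without that sample the log2 fold change of Mcm2 was -0.59 (adjusted p = 0.0477). Cdc45, which joins the helicase with the GINS complex, fell by 0.81, and all 4 GINS genes fell, with log2 fold changes from -1.24 to -0.46. The sliding clamp Pcna fell from 454, 423, 451 and 342 CPM to 289.6, 210.3, 208 and 199 CPM (log2 fold change -0.89, adjusted p = 0.00398), and the 4 tested subunits of its loader, replication factor C, fell, with log2 fold changes from -0.90 to -0.57. Of 6 polymerase and primase genes 5 fell. Lig1, the ligase that joins Okazaki fragments, fell from 182 ± 8.91 CPM to 102 ± 12.0 CPM after CIX (SD, n = 4).

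Of 6 genes of nucleotide synthesis 6 fell, with log2 fold changes from -1.20 to -0.56. Rrm2, the regulated subunit of ribonucleotide reductase, fell from 213, 198, 217 and 206 CPM to 123, 84.0, 82.3 and 79.3 CPM (log2 fold change -1.20, adjusted p = 0.00128). Tyms, which makes thymidylate, fell from 87.4 ± 5.05 CPM to 44.2 ± 5.11 CPM after CIX (SD, n = 4; log2 fold change -0.98, adjusted p = 7.87e-04), and the thymidine kinase Tk1 from 147 ± 8.48 CPM to 76.6 ± 9.88 CPM after CIX (SD, n = 4; log2 fold change -0.95, adjusted p = 0.0011). In these genes the 4 CIX samples lay below the 4 vehicle samples. The members that did not pass 0.05 were Mcm2, Cdt1, Pola1, Orc1 and E2f2, the last 4 named after their values were seen.

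Promoter sequence was read from RefSeq for the genes of the lists, in windows of 300 bases that hold 250 bases before the start of the gene and 50 after it (GRCm38.p6). Of the 41 S phase genes 32 had an entry, with 38 windows, since a gene can have several starts. The E2F motif was searched as TTTCCCGC, TTTGGCGC, TTTCGCGC or TTTGCCGC on both strands, and 14 of 38 windows of the S phase list (36.8%) held it, against 2.26% of all 32851 windows in the table. Among the genes that fell at 0.05 the share was 9.34%, among those that rose it was 2.52%, and among all tested genes 4.11%. The S phase windows with the motif included those of Cdt1, E2f2, Orc1 and Pola1, which did not pass 0.05. A match of letters describes the sequence and does not show that a factor binds there. For the mitotic list the cell cycle homology letters TTTGAA were in 23 of 30 windows (76.7%) against 17.9% of all windows, and CCAAT, the letters read by NF-Y, in 83.3% against 37.4%. The windows of Cdc6 (chr11:98907901-98908200, plus strand) and of Cdk1 (chr10:69352863-69353162, minus strand) are shown 5′ to 3′ in the direction of the gene, with the E2F letters of Cdc6 and the TTTGAA letters of Cdk1, on either strand, in capitals. The Cdk1 window also held the E2F letters TTTCGCGC, left in lower case. Of the 30 windows of the mitotic list it was the only 1 with E2F letters.
Cdc6: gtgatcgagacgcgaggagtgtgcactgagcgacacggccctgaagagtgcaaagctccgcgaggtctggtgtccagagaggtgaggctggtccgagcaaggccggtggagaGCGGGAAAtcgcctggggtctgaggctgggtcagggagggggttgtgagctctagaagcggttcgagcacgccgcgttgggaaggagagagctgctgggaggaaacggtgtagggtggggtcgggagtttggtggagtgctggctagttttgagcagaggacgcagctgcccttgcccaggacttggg
Cdk1: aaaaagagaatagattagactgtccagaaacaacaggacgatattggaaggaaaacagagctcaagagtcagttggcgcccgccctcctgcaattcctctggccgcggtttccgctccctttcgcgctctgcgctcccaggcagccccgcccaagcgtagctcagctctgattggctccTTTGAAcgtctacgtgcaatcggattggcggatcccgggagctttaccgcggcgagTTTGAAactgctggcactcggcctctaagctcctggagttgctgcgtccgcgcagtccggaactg

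The G2/M and mitosis genes, which drive entry into mitosis, the spindle and cell division, fell in part. Of 35 tested members 20 fell and 0 rose, against 9.25% of all tested genes that fell and 8.5% that rose, with a median log2 fold change of -0.39. The counts of genes that rose and fell were 1 and 20 without vehicle sample 13, and 0 and 16 without CIX sample 10. Foxm1, the transcription factor that drives many of these genes, fell from 246, 227, 232 and 218 CPM to 154, 150.0, 131 and 123 CPM (log2 fold change -0.73, adjusted p = 0.00141). Cyclin A2, Ccna2, fell from 209 ± 13.1 CPM to 129 ± 19.2 CPM after CIX (SD, n = 4), and the mitotic kinase Cdk1 from 236 ± 21.2 CPM to 144 ± 25.8 CPM after CIX (SD, n = 4). Their log2 fold changes were -0.71 and -0.73, with limma-voom adjusted p of 0.00358 and 0.00634. Birc5, encoding survivin, the kinases Plk1 and Ttk and cyclin F, Ccnf, fell by between 0.51 and 0.66. Cyclin B1, Ccnb1, had a log2 fold change of -0.39 (adjusted p = 0.0779), and Mki67, the gene of the proliferation marker Ki-67, one of -0.22 (adjusted p = 0.275), and the groups overlapped in both.

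The mitotic genes that were called fell in 67NR cells and rose in 4T1 cells. In 4T1 cells 23 of these 35 genes rose and 0 fell at 0.05, where 21.9% of the genes tested in 4T1 cells rose and 20.8% fell, with a median log2 fold change of 0.54. In the test of the interaction, the response in 67NR cells minus that in 4T1 cells, 29 of 35 had a lower and 0 a higher response in 67NR cells at 0.05, where 15.1% of the tested genes had a lower and 14.2% a higher one. Birc5 was an example, with log2 fold changes of -0.66 in 67NR and 1.22 in 4T1 cells (interaction -1.88, limma-voom adjusted p = 1.86e-06). In the S phase list 23 of 41 genes had a lower and 1 a higher response in 67NR cells. Of the 41 genes 8 rose and 9 fell in 4T1 cells, where the shares of all genes tested there were 21.9% and 20.8%. Tk1 and Lig1 rose in 4T1 cells, by 1.24 and 1.31 (interaction adjusted p = 1.48e-04 and 2.14e-05), whereas Pcna had log2 fold changes of -0.89 and -0.92 in 67NR and 4T1 cells.

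**Figure D3:**
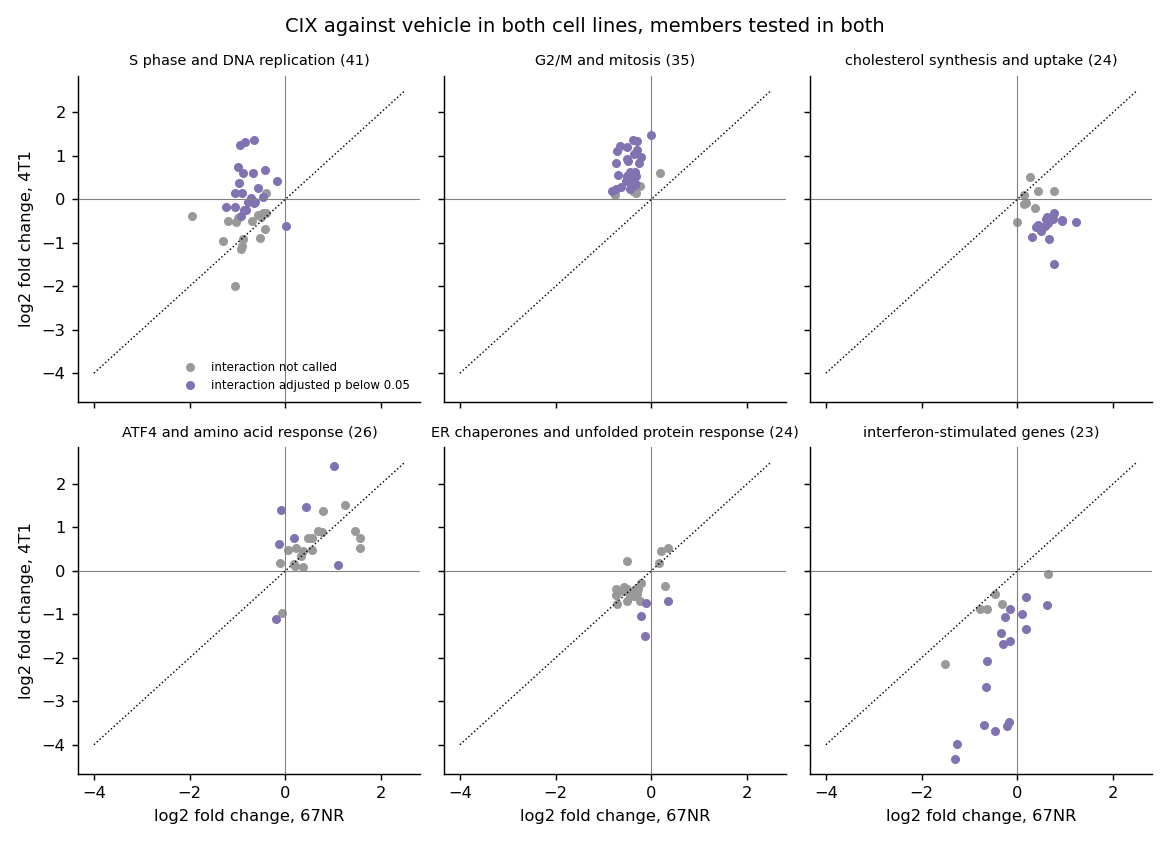
Log2 fold change of CIX against vehicle in 67NR cells (horizontal axis) and in 4T1 cells (vertical axis) for list members tested in both lines, in violet where the interaction had an adjusted p below 0.05, with equal change on the dotted line. The median of the mitotic genes lies left of and above 0 ( -0.39 and 0.54), and that of the cholesterol genes right of and below it ( 0.59 and -0.47).

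Cholesterol synthesis was the group with the highest median. Cells make cholesterol from acetyl-CoA through mevalonate, farnesyl diphosphate and squalene, and SREBP2, encoded by Srebf2, is known to drive the genes of this route when sterols of the endoplasmic reticulum are low. Of 24 tested members 16 rose and 0 fell, where 8.5% of all tested genes rose, and the median log2 fold change was 0.59. The count was 16 without vehicle sample 13, 16 without CIX sample 10 and 10 in a fit of all 16 samples. Relative to the vehicle mean, the CIX samples lay at 0.71, 0.51, 0.48 and 0.46 and the vehicle samples at 0.17, -0.20, 0.02 and 0.0083 on the log2(CPM + 1) scale as a mean over the members, without overlap.

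In the order of the route, 5 of 7 genes from acetoacetyl-CoA to farnesyl diphosphate rose, with log2 fold changes from 0.60 to 1.22. Mvd (ENSMUSG00000006517, chromosome 8, 122433601 to 122443422), the mevalonate diphosphate decarboxylase, rose most, from 52.8, 35.1, 39.4 and 38.7 CPM to 108, 102, 86.2 and 88.3 CPM (log2 fold change 1.22, SE 0.13, adjusted p = 0.00125). Fdps, which makes farnesyl diphosphate, rose from 356 ± 45.9 CPM to 608 ± 60.3 CPM after CIX (SD, n = 4). From squalene to cholesterol 9 of 12 genes rose, with log2 fold changes from 0.43 to 0.94. They included the squalene synthase Fdft1, the lanosterol synthase Lss and the demethylase Cyp51, with log2 fold changes of 0.78, 0.94 and 0.63. Lss reached 253, 253, 259 and 265 CPM with CIX, above each vehicle sample (129, 109, 130.4 and 175 CPM). Sqle, the squalene epoxidase, rose by 0.43 (adjusted p = 0.0268), and this call was lost without vehicle sample 5 or 9 or CIX sample 10, with an adjusted p of up to 0.0721. Srebf2 itself rose by 0.44 (adjusted p = 0.00709).

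In 4T1 cells the median of these genes was -0.47, with 1 gene that rose and 5 that fell, where 21.9% and 20.8% of the genes tested in 4T1 cells did. The interaction had a higher response in 67NR cells for 16 of 24 members and a lower one for 0, against 14.2% and 15.1% of the tested genes. For Mvd the log2 fold changes were 1.22 and -0.52 (interaction 1.74, limma-voom adjusted p = 3.54e-04). The sterol regulatory element was searched as TCACNCCAC on both strands, and 1 of 20 windows of the list held it, that of Hmgcs1, the synthase at the start of the route, against 1.24% of all windows. Hmgcs1 rose by 0.70 (adjusted p = 0.0125) and was chosen after its values were seen. Its window (chr13:119690101-119690400, plus strand) is shown with these letters in capitals.
Hmgcs1: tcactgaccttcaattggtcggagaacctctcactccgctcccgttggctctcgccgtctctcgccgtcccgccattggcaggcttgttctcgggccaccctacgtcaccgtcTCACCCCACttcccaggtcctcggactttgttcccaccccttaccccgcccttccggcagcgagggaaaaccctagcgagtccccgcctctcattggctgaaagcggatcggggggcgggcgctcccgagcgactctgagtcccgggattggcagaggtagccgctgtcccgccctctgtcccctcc
CCAAT, which is known to accompany sterol elements, was in 80% of the windows of the list, against 37.4% of all windows.

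Genes of fatty acid synthesis and use moved less. In the synthesis list 5 of 18 tested members rose and 1 fell, against 8.5% and 9.25% of all tested genes, with a median of 0.14. Acss2, which makes acetyl-CoA from acetate, rose from 46.9, 49.8, 42.0 and 44.5 CPM to 70.2, 82.6, 68.8 and 80.7 CPM (log2 fold change 0.72, adjusted p = 0.00171). Acly, which makes it from citrate, and the desaturases Fads1 and Scd1 rose by 0.35, 0.43 and 0.40. The fatty acid synthase Fasn and the regulator Srebf1 had log2 fold changes of 0.21 (adjusted p = 0.218) and -0.15 (adjusted p = 0.302). The member that fell, Mid1ip1, had a log2 fold change of -0.70 (adjusted p = 0.0401) and kept this call in 1 of 8 fits that left out 1 sample. In the list of fatty acid oxidation and PPAR targets 6 of 23 members rose and 2 fell (3 to 6 and 0 to 2 without single samples), against 8.5% and 9.25% of all tested genes, with a median of 0.01. Plin2, which coats lipid droplets, rose from 117, 121, 110.0 and 114 CPM to 194, 182, 180.1 and 164 CPM (log2 fold change 0.63, adjusted p = 0.00125), and the receptor Ppard by 0.46.

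In the pathway of the enzyme that CIX targets, Ptgs2 and Ptges rose. Pla2g4a (ENSMUSG00000056220, chromosome 1, 149829618 to 149961290) was at 60.6, 82.0, 77.7 and 342 CPM with vehicle and at 108, 117, 179 and 127 CPM with CIX (log2 fold change 0.28, adjusted p = 0.727), and the high value of vehicle sample 13 overlapped with all CIX samples. Without this sample the log2 fold change was 0.84 (adjusted p = 0.0171), so that vehicle sample 13 decided whether this gene was called. Ptgs2 (ENSMUSG00000032487, chromosome 1, 150100031 to 150108227), the inducible cyclooxygenase, was at 80.2, 66.4, 77.3 and 100.2 CPM and at 155, 206, 272 and 372 CPM, and the groups did not overlap (log2 fold change 1.57, SE 0.25, adjusted p = 0.00475). Ptgs1, the constitutive form, had a log2 fold change of -0.26 (adjusted p = 0.0352), a call kept in 1 of 8 fits that left out 1 sample. Ptges, the inducible prostaglandin E synthase, rose from 47.8, 58.1, 56.6 and 59.7 CPM to 89.0, 108, 102 and 113 CPM (log2 fold change 0.89, adjusted p = 0.00133), and the cytosolic form Ptges3 fell by 0.35. Abcc4, a transporter that can export prostaglandins, rose by 0.77 (adjusted p = 0.0158). Of the 16 tested members of the list 5 rose and 3 fell (3 to 6 and 1 to 2 without single samples, against 8.5% and 9.25% of all tested genes, so that 3 falls were reached in none of those fits). In 4T1 cells the log2 fold changes of Ptgs2 and Ptges were 0.64 and -0.39, and the interaction gave limma-voom adjusted p of 0.0282 and 0.0834.

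**Figure D4:**
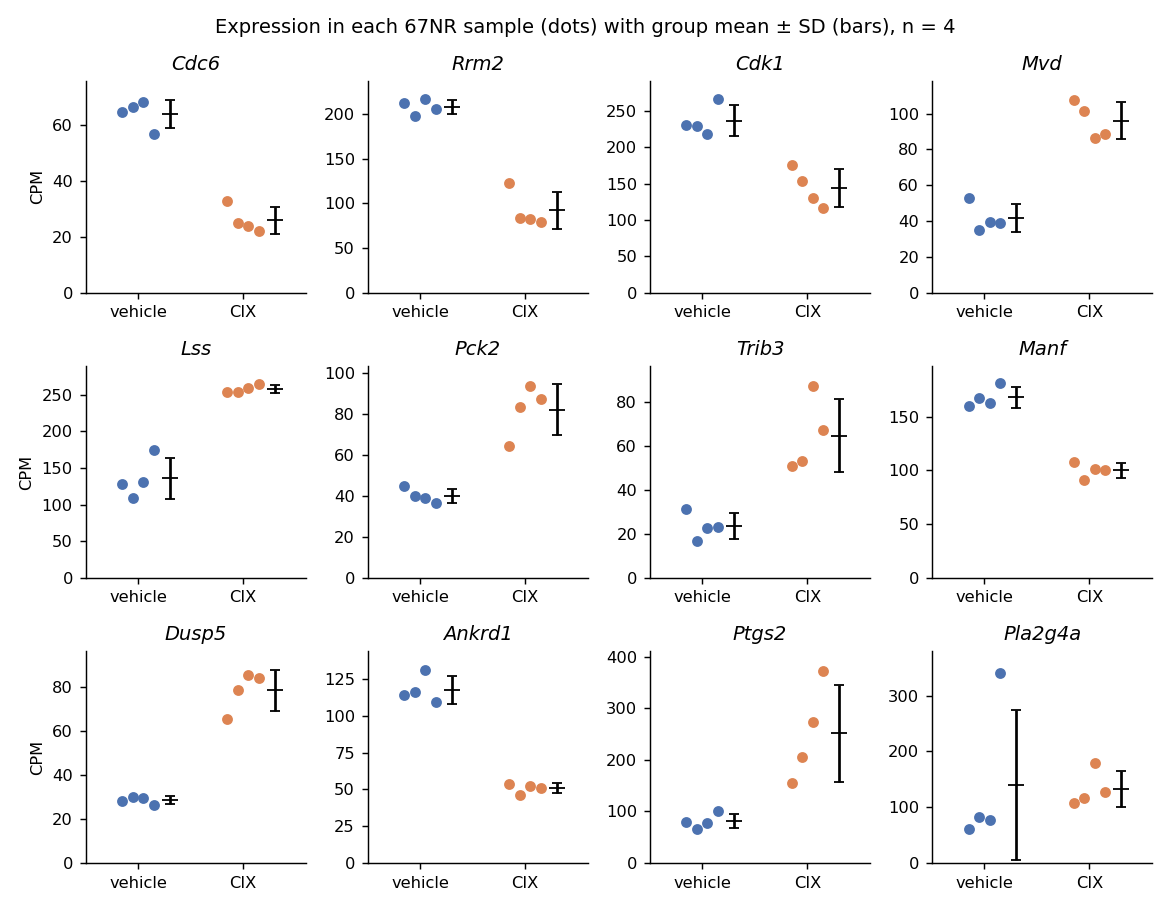
Expression in CPM (vertical axes, each from 0) of 12 genes in the 4 vehicle samples (blue) and the 4 CIX samples (orange) of 67NR cells, in the order of sample numbers, with the group mean ± SD as black bars. The groups are apart in 11 of the genes, and in Pla2g4a vehicle sample 13, at 342 CPM, lies above all CIX samples.

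Targets of ATF4 that were called rose. ATF4 is translated when phosphorylation of eIF2α slows protein synthesis, and it is known to switch on amino acid synthesis and uptake as well as the stress genes Ddit3 and Trib3. Of 29 tested members 15 rose and 0 fell (9 to 16 and 0 to 1 without single samples), against 8.5% and 9.25% of all tested genes, with a median log2 fold change of 0.42. The counts of genes that rose and fell were 14 and 0 without vehicle sample 13, and 12 and 1 without CIX sample 10. As a mean over the members the CIX samples lay at 0.29, 0.42, 0.80 and 0.54 and the vehicle samples at 0.099, -0.19, 0.004 and 0.086 relative to the vehicle mean on the log2(CPM + 1) scale, and the groups did not overlap.

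Of the stress genes, Trib3 rose from 31.2, 16.9, 22.5 and 23.1 CPM to 50.9, 53.1, 87.2 and 67.3 CPM (log2 fold change 1.45, adjusted p = 0.00369), and Chac1, which degrades glutathione, from 12.1, 7.33, 12.3 and 7.09 CPM to 20.9, 23.2, 40.9 and 32.4 CPM (log2 fold change 1.57, adjusted p = 0.00696). Ddit3, encoding CHOP, rose by 0.79. Of the metabolic genes, Pck2, the mitochondrial PEP carboxykinase, rose from 44.7, 40.2, 39.2 and 36.4 CPM to 64.6, 83.5, 93.7 and 87.3 CPM (log2 fold change 1.02, adjusted p = 0.00169), and the asparagine synthetase Asns from 95.8 ± 8.39 CPM to 154 ± 21.7 CPM after CIX (SD, n = 4; log2 fold change 0.68, adjusted p = 0.00442). Psat1, of serine synthesis, had a log2 fold change of -0.13 (adjusted p = 0.45). Slc3a2, the heavy chain of amino acid exchangers, rose by 1.09 (adjusted p = 0.00475), and the cystine carrier Slc7a11 by 1.56 (adjusted p = 0.0169), the latter not called without vehicle sample 9 (adjusted p = 0.052). Atf4 had a log2 fold change of 0.36 (adjusted p = 0.0436), a call kept in 2 of 8 fits that left out 1 sample.

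The response was higher in 67NR than in 4T1 cells for 2 of 32 ATF4 members and lower for 5 at 0.05, where 14.2% and 15.1% of the tested genes were, and the median in 4T1 cells over the 26 members tested in both lines was 0.57. Pck2 rose more in 4T1 cells, by 2.42 (interaction -1.39, limma-voom adjusted p = 2.57e-04). The letters of the C/EBP-ATF element, TGATGNAA on both strands, were in 7 of 29 windows of the list (24.1%) against 3.97% of all windows. Among all genes that rose, all that fell and all tested genes the shares were 2.91%, 3.76% and 2.13%. The windows of Asns (chr6:7693160-7693459, minus strand) and Pck2 (chr14:55540016-55540315, plus strand) are printed with these letters in capitals, as genes of the list that rose.
Asns: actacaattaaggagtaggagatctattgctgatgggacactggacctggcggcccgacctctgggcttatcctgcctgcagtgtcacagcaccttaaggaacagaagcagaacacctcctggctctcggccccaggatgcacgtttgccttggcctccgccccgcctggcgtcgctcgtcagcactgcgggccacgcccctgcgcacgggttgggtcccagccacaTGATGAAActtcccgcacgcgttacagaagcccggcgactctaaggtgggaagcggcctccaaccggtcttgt
Pck2: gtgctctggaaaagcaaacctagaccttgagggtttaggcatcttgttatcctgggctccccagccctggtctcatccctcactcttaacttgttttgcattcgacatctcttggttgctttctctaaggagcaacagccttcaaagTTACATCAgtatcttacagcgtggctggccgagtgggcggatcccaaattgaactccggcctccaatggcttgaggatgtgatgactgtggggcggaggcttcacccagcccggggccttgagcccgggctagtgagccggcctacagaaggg

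Of 20 cytosolic aminoacyl-tRNA synthetase genes, several of which are also known as ATF4 targets, 3 rose, Sars, Aars and Gars, and 1 fell (1 to 4 and 1 without single samples), against 8.5% and 9.25% of all tested genes. Sars, for serine, rose from 261 ± 29.4 CPM to 411 ± 27.3 CPM after CIX (SD, n = 4; log2 fold change 0.66, adjusted p = 0.0022), and Hars, for histidine, fell by 0.30 (adjusted p = 0.0105).

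Of the chaperone genes of the endoplasmic reticulum that were called, all but 1 fell. These genes serve protein folding and are known to rise with ATF6 and XBP1 when unfolded proteins build up. Of 24 tested members 10 fell and 1 rose, against 9.25% of all tested genes that fell and 8.5% that rose, with a median of -0.30, and in 4T1 cells the median was -0.46. Manf, a secreted stress-response protein of this compartment, fell from 160.2, 167, 163 and 181 CPM to 108, 90.9, 101 and 99.9 CPM (log2 fold change -0.75, adjusted p = 8.78e-04). Calr, the chaperone calreticulin, fell from 877, 1013, 939 and 1023 CPM to 647, 641, 648 and 638 CPM (log2 fold change -0.58, adjusted p = 0.00125), and the disulfide isomerase Pdia6 from 685 ± 23.9 CPM to 484 ± 10.7 CPM after CIX (SD, n = 4). The co-chaperones Dnajc3 and Sdf2l1 fell by 0.72 and 0.74. Hspa5, encoding BiP, had a log2 fold change of -0.30 (adjusted p = 0.0253), called in 2 of 8 fits that left out 1 sample. Hsp90b1, encoding GRP94, was at 1119, 1349, 1682 and 5349 CPM and at 1696, 1301, 1366 and 1079.8 CPM (log2 fold change -0.51, adjusted p = 0.458), again with vehicle sample 13 far above the rest, and without that sample its log2 fold change was -0.02 (adjusted p = 0.947). The member that rose was the stress sensor Ern1 (log2 fold change 0.35, adjusted p = 0.0484), a call kept in 1 of those 8 fits. Among cytosolic heat shock genes 3 of 17 fell, Hspa1b, Dnaja1 and Dnajb1, and 1 rose, Dnajb4 (0 to 2 and 1 to 3 without single samples for rises and falls), against 9.25% of all tested genes that fell and 8.5% that rose. Hspa1b fell from 279, 286, 270.4 and 293 CPM to 135, 131, 136 and 129 CPM (log2 fold change -1.09, adjusted p = 1.26e-04), and 68.0% of its 31-base words occur in other genes, mostly in Hspa1a, so that reads of the pair could not be told apart fully.

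Among immediate early genes and feedback inhibitors of ERK, more rose than fell. Growth factor receptors signal through ERK to genes such as Egr1, Fosb and Jun, and phosphatases of the DUSP family and Sprouty proteins damp the pathway. Of 22 tested members 11 rose and 1 fell, against 8.5% and 9.25% of all tested genes, with a median of 0.41. The counts of genes that rose and fell were 11 and 2 without vehicle sample 13, and 10 and 1 without CIX sample 10. Dusp5 (ENSMUSG00000034765, chromosome 19, 53529109 to 53542431) was at 28.1, 29.9, 29.6 and 26.1 CPM and at 65.2, 78.5, 85.6 and 84.2 CPM (log2 fold change 1.45, adjusted p = 3.20e-04), and Dusp4, of the same family, at 67.7, 64.0, 57.6 and 57.6 CPM and at 116, 116, 118 and 114 CPM (log2 fold change 0.91, adjusted p = 4.00e-04). Both were among the 45 genes called at 0.001, and in both all CIX samples lay above all vehicle samples. Spry2 rose by 0.70 (adjusted p = 0.00111). Of the transcription factors, Jun rose from 388 ± 21.4 CPM to 553 ± 26.5 CPM after CIX (SD, n = 4), Junb by 0.89, Fosb by 1.47 and Egr1 by 1.71 on the log2 scale. Egr1 varied among the CIX samples, which were at 16.1, 26.3, 22.4 and 44.8 CPM against 10.1, 7.02, 5.32 and 9.69 CPM with vehicle (log2 fold change 1.71, adjusted p = 0.0132). The member that fell was Dusp1, from 158, 175, 160.3 and 153 CPM to 98.5, 109, 103 and 116 CPM (log2 fold change -0.60, adjusted p = 0.00171). In 4T1 cells Egr1 had a log2 fold change of -3.17 and Dusp1 one of 0.91, and both differed from 67NR cells (interaction limma-voom adjusted p = 0.00584 and 4.81e-06).

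Targets of YAP and TAZ, coactivators that work with TEAD factors and respond to cell density and tension, were called in 8 of 16 tested members, with 3 up and 5 down (3 to 5 and 5 without single samples), where 8.5% of all tested genes rose and 9.25% fell. Ankrd1 (ENSMUSG00000024803, chromosome 19, 36111961 to 36120099) fell from 115, 116, 132 and 109 CPM to 53.8, 46.3, 52.6 and 50.9 CPM (log2 fold change -1.21, adjusted p = 2.96e-04). Ccn2, encoding connective tissue growth factor, was low in all samples, at 4.55, 2.74, 4.40 and 8.83 CPM with vehicle and at 0.583, 1.88, 0.139 and 0.26 CPM with CIX (log2 fold change -3.27, adjusted p = 0.014). Its paralog Ccn1 was at 151, 135, 158 and 131 CPM and at 114, 182, 136 and 181 CPM (log2 fold change 0.07, adjusted p = 0.797), and the groups overlapped. Crim1 and Ajuba fell by 0.87 and 0.54, whereas the factor Tead4 and F3, encoding tissue factor, rose by 0.76 and 0.74. In 4T1 cells 10 of 17 tested members rose and 0 fell, against 21.9% and 20.8% of all genes tested there, and the interaction was lower in 67NR cells for 6 and higher for 1, where 15.1% and 14.2% of the tested genes were. For Ankrd1 the log2 fold changes were -1.21 and 0.64 in 67NR and 4T1 cells (interaction limma-voom adjusted p = 1.14e-06). The TEAD letters GGAATG, on both strands, were in 13 of 17 windows of this list (76.5%) against 14.7% of all windows, and the window of Ankrd1 (chr19:36119795-36120094, minus strand) is shown with them in capitals.
Ankrd1: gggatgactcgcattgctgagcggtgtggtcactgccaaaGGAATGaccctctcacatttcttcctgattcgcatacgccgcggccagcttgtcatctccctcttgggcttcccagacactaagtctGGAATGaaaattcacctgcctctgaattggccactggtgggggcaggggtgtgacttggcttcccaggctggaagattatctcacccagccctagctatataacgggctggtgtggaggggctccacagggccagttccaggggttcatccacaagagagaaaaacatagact

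**Figure D5:**
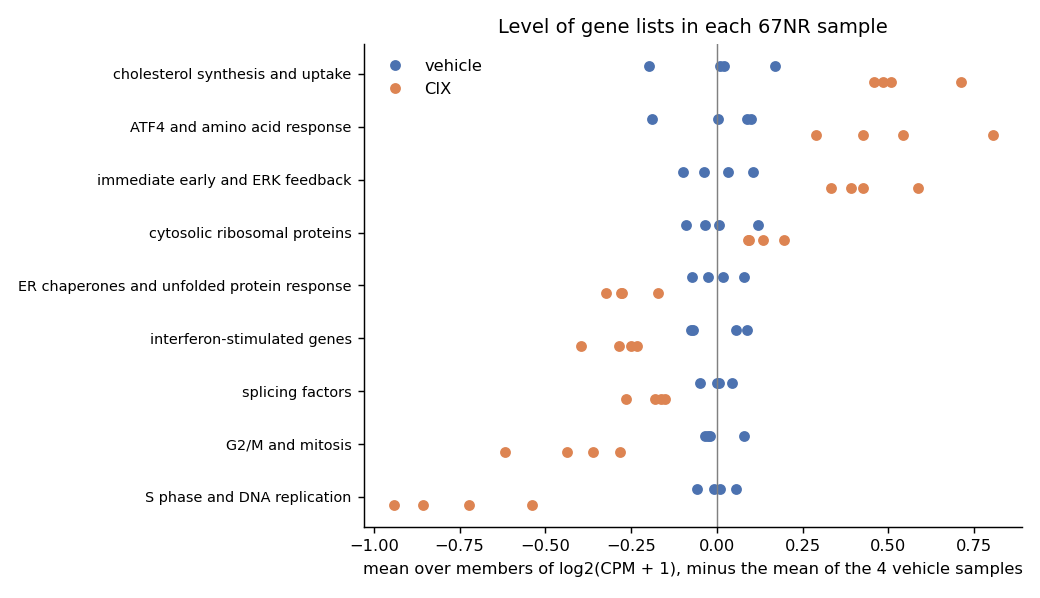
Mean over the tested members of 9 gene lists of log2(CPM + 1) in each 67NR sample, relative to the mean of the 4 vehicle samples (horizontal axis), with vehicle in blue and CIX in orange. In the S phase list the CIX samples lie at -0.54, -0.72, -0.94 and -0.86, all below the vehicle samples, and in the ribosomal protein list the groups overlap.

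Of 26 tested matrix genes 3 rose and 5 fell (1 to 5 and 5 to 6 without single samples), where 8.5% of all tested genes rose and 9.25% fell, with a median of -0.01. Besides Thbs1, Loxl3, a lysyl oxidase that crosslinks collagen, fell from 187, 195, 186 and 178 CPM to 119, 121, 83.8 and 119.9 CPM (log2 fold change -0.76, adjusted p = 0.004). The proteoglycan Bgn fell from 16.8, 21.1, 15.4 and 19.4 CPM to 7.50, 4.84, 4.26 and 10.3 CPM (log2 fold change -1.50, adjusted p = 0.00479), and Col8a1 and Sparc by 0.44 and 0.33. Of 15 protease and inhibitor genes 3 rose, Mmp9 by 1.44 on the log2 scale, Mmp10, from 18.6, 15.4, 15.9 and 20.4 CPM to 34.1, 59.1, 52.0 and 65.7 CPM (log2 fold change 1.55, adjusted p = 0.00278), and the membrane protease Mmp14, by 0.52. Plat, encoding tissue plasminogen activator, was the 1 that fell, by 0.54. The counts of rises and falls were 2 to 5 and 1 to 2 without single samples. In 4T1 cells Mmp10 fell by a log2 fold change of -1.67 (interaction limma-voom adjusted p = 7.11e-04).

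Of 16 tested genes of integrins and focal adhesions 5 rose and 2 fell (3 to 5 and 1 to 2 without single samples), against 8.5% and 9.25% of all tested genes. Itga5, a subunit of the fibronectin receptor, rose from 122, 130.2, 118 and 122 CPM to 184, 249, 252 and 255 CPM (log2 fold change 0.92, adjusted p = 0.00154), and Itgb7 and the laminin-binding subunit Itga7 by 1.12 and 0.54. Itgb4, a laminin-binding subunit of hemidesmosomes, fell from 8.30, 11.5, 12.0 and 15.6 CPM to 3.81, 5.13, 6.90 and 4.42 CPM (log2 fold change -1.23, adjusted p = 0.0105). Of 14 tested EMT factors and cadherins 2 rose, Vim and Tgfb3, and 0 fell (1 to 3 and 0 to 3 without single samples), against 8.5% and 9.25% of all tested genes, and 3 fell without vehicle sample 13 and also with DESeq2, with sample quality weights and with 1 surrogate variable. N-cadherin, Cdh2, had a log2 fold change of 0.10 (adjusted p = 0.418).

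Interferon-stimulated genes, which are known to be switched on by type I interferon through STAT2 and IRF9, were lower in part. Of 42 genes of the list 24 passed the filter on low values, and 10 of them fell and 1 rose, against 9.25% of all tested genes that fell and 8.5% that rose, with a median of -0.30. The counts of genes that rose and fell were 1 and 7 without vehicle sample 13, and 1 and 4 without CIX sample 10, and no fit without 1 sample gave more than 7 falls. In a fit of all 16 samples 4 fell. Ifit2 fell from 95.3, 89.4, 99.1 and 83.0 CPM to 60.6, 52.2, 53.6 and 48.8 CPM (log2 fold change -0.77, adjusted p = 0.00134), and Ifi27 from 127 ± 7.10 CPM to 82.0 ± 8.90 CPM after CIX (SD, n = 4; log2 fold change -0.63, adjusted p = 0.00305). Ifit3 fell from 8.62, 8.23, 8.60 and 8.61 CPM to 4.00, 2.75, 2.41 and 2.86 CPM (log2 fold change -1.51, adjusted p = 0.00111), with 61.8% of its 31-base words shared, mostly with Ifit3b. Isg15 had a log2 fold change of -0.47 (adjusted p = 0.0384) at 5.64 to 6.97 CPM with vehicle, a call kept in 1 of 8 fits that left out 1 sample. Of the signaling genes, Stat2 rose from 25.2, 26.4, 23.0 and 26.6 CPM to 36.3, 41.4, 31.8 and 45.9 CPM (log2 fold change 0.61, adjusted p = 0.0106). Irf9 was not called, with a log2 fold change of -0.29 (adjusted p = 0.215). In 4T1 cells 36 of 38 tested members fell and 0 rose, against 20.8% and 21.9% of all genes tested there, and 23 of the 39 tested for the interaction had a higher response in 67NR cells and 0 a lower one, against 14.2% and 15.1% of the tested genes. For Isg15 the log2 fold changes were -0.47 and -3.69 (interaction 3.22, limma-voom adjusted p = 1.21e-04).

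Of 29 tested genes of Toll-like receptor and NF-kB signaling 2 rose, Relb and Cd14, and 1 fell, Tbk1 (0 to 3 and 0 to 1 without single samples), where 8.5% of all tested genes rose and 9.25% fell. Tlr3, the receptor of double-stranded RNA, was at 3.75, 4.14, 5.12 and 2.78 CPM and at 7.19, 5.00, 4.86 and 4.03 CPM (log2 fold change 0.42, adjusted p = 0.253), and Tlr4, the receptor of lipopolysaccharide, at 34.4, 48.7, 43.0 and 41.8 CPM and at 36.5, 24.1, 38.7 and 32.4 CPM (log2 fold change -0.36, adjusted p = 0.155). The adaptor Myd88 had a log2 fold change of -0.13 (adjusted p = 0.626) and the factor Irf3 one of 0.03 (adjusted p = 0.904). The groups overlapped in these 4 genes. For Tlr3 the response was higher in 67NR than in 4T1 cells, where its log2 fold change was -2.17 (interaction 2.60, limma-voom adjusted p = 1.28e-05). For Irf3 it was lower than in 4T1 cells, where the log2 fold change was 1.28 (interaction -1.25, limma-voom adjusted p = 5.23e-04).

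Of 16 tested chemokine and cytokine genes 5 fell and 2 rose, Il33 and Il11 (1 to 3 and 4 to 5 without single samples for rises and falls), against 8.5% and 9.25% of all tested genes that rose and fell. Cxcl5, a neutrophil attractant, fell from 83.3, 52.8, 92.4 and 63.1 CPM to 28.3, 18.9, 23.7 and 21.2 CPM (log2 fold change -1.64, adjusted p = 0.00171). Cxcl12, the ligand of CXCR4, fell from 52.1, 50.8, 62.9 and 37.5 CPM to 21.5, 18.9, 22.5 and 15.8 CPM (log2 fold change -1.36, adjusted p = 0.00199). The monocyte attractants Ccl7 and Ccl2 fell by 1.13 and 0.89, the latter with an adjusted p of 0.0505 without CIX sample 14. Ccl5, a T cell attractant, was low, at 2.83, 3.87, 1.96 and 1.44 CPM with vehicle and at 0.544, 0.208, 0.185 and 0.477 CPM with CIX (log2 fold change -2.79, adjusted p = 0.00627).

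Of 26 tested antioxidant genes under NRF2 6 rose and 2 fell (4 to 7 and 0 to 4 without single samples), where 8.5% and 9.25% of all tested genes did, with a median of 0.06. Srxn1, which repairs peroxiredoxins, and Sqstm1, the autophagy receptor p62, rose by 0.45 and 0.36 beside Hmox1. Nqo1, a classical NRF2 target, was at 8.06, 7.46, 7.12 and 7.94 CPM and at 10.8, 8.67, 7.41 and 9.46 CPM (log2 fold change 0.24, adjusted p = 0.243), and in 4T1 cells it rose by 2.58 (interaction -2.34, limma-voom adjusted p = 5.26e-05). Hmox1 fell in 4T1 cells, by a log2 fold change of -1.03, against 1.64 in 67NR cells (interaction 2.68, limma-voom adjusted p = 8.25e-06). Of 16 genes of iron, zinc and heme handling 5 rose and 1 fell (3 to 6 and 0 to 1 without single samples), against 8.5% and 9.25% of all tested genes. Mt2 rose from 15.2, 11.2, 10.2 and 10.9 CPM to 28.4, 37.2, 38.9 and 34.7 CPM (log2 fold change 1.55, adjusted p = 9.06e-04), and Mt1 from 33.6 ± 6.28 CPM to 58.8 ± 8.09 CPM after CIX (SD, n = 4; log2 fold change 0.81, adjusted p = 0.00657).

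Of 21 tested p53 targets 5 rose and 2 fell (2 to 6 and 1 to 2 without single samples), against 8.5% and 9.25% of all tested genes. Cdkn1a, encoding the cell cycle inhibitor p21, was at 226, 261, 218 and 268 CPM and at 228, 237, 254 and 287 CPM (log2 fold change 0.05, adjusted p = 0.773), without a separation of the groups. Its response differed from that in 4T1 cells, where it fell by 1.71 on the log2 scale (interaction 1.76, limma-voom adjusted p = 0.00224). The polo-like kinase genes Plk2 and Plk3 rose by 0.81 and 0.51, and Trp53, which encodes p53, fell by 0.36 (adjusted p = 0.00689). Of 18 tested apoptosis regulators 4 fell, among them Bax, Bad and Bcl2, and 0 rose (0 to 1 and 0 to 3 without single samples for rises and falls), against 8.5% and 9.25% of all tested genes that rose and fell. Bax, which permeabilizes mitochondria, was at 216, 214, 192 and 342 CPM and at 159, 160.3, 145 and 172 CPM (log2 fold change -0.56, adjusted p = 0.0475), with vehicle sample 13 highest.

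Of 37 tested genes of RNA splicing 14 fell and 0 rose (7 to 14 fell without single samples), against 9.25% of all tested genes that fell and 8.5% that rose, with a median of -0.21. SR proteins, which define exons, were among them, with 6 of 10 genes called. Srsf7 fell from 146, 146, 137 and 145 CPM to 96.1, 102, 89.6 and 94.6 CPM (log2 fold change -0.58, adjusted p = 0.00116). Tra2b, Srsf6, Srsf1 and Hnrnpa2b1 fell by between 0.39 and 0.47 on the log2 scale. The number that fell was 8 without CIX sample 10 and 14 without vehicle sample 13. Of 73 cytosolic ribosomal protein genes 14 rose and 0 fell, against 8.5% and 9.25% of all tested genes, with a median of 0.17, and Rpl4 went from 2143 ± 153 CPM to 2609 ± 34.1 CPM after CIX (SD, n = 4). The number of these genes that rose ranged from 3 to 19 in the fits that left out 1 sample, and was 19 without vehicle sample 13 and 4 without CIX sample 10.

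In energy metabolism, 7 of 29 tested glycolysis and hypoxia genes rose and 3 fell (4 to 7 and 2 to 5 without single samples), against 8.5% and 9.25% of all tested genes. The glucose transporter Slc2a1 and the phosphofructokinase Pfkp rose by 0.48 and 0.61, and Ndrg1, a hypoxia target, by 0.73. Ldha, the lactate dehydrogenase, fell from 1032, 1143, 1110.0 and 1065 CPM to 885, 761, 820.2 and 618 CPM (log2 fold change -0.51, adjusted p = 0.0123). Of 35 respiratory chain genes 0 rose and 3 fell, Ndufa1, Uqcrb and Atp5j (0 and 1 to 5 without single samples), with a median of -0.13, a share of falls close to the 9.25% of all tested genes. Of 30 genes of lysosome and autophagy 6 rose and 1 fell (3 to 5 and 1 without single samples), against 8.5% and 9.25% of all tested genes. Ctsl, the protease cathepsin L, rose from 1971, 1988, 1909.7 and 1824 CPM to 2573, 2486, 2505 and 2427 CPM (log2 fold change 0.38, adjusted p = 0.00219), and Npc2, which carries cholesterol inside the lysosome, by 0.28. Of 31 proteasome genes 2 rose, Psmd11 and Psmd8, and 0 fell (1 to 2 and 0 to 2 without single samples), against 8.5% of all tested genes that rose.

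Calls of single genes near the threshold depended on single samples. In the 8 fits that left out 1 sample each, Cd14, Bad and Bcl2 were called at 0.05 in 0 fits and Dnajb1 in 1. Tbk1, Il11, Bax, Uqcrb, Atp5j, Aars and Dnajb4 were called in 2 of these fits, Gars and Mmp9 in 3 and Dnaja1 in 4. Relb and Psmd8 were called in 6 and Tgfb3 in 7. The largest limma-voom adjusted p of each of these genes lay between 0.0556 and 0.127.

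Across all genes the response of 67NR cells differed from that of 4T1 cells at an adjusted p below 0.001 for 993 of 12629 genes (7.86%), with 386 (3.06%) higher and 607 (4.81%) lower in 67NR cells. Among genes called at 0.001 with a mean of at least 5 CPM in 1 of the 4 groups, predicted genes and pseudogenes left out, the largest positive interactions were those of Slc39a8, Disp2, Bglap3, Lrrc14b and Cd209c. Slc39a8, a zinc and manganese transporter, rose in 67NR cells from 4.75, 4.72, 4.32 and 4.08 CPM to 7.30, 6.17, 7.36 and 6.68 CPM (log2 fold change 0.62, adjusted p = 0.0106), and it had means of 4.10 CPM with vehicle and 0.121 CPM with CIX in 4T1 cells (interaction 6.11, limma-voom adjusted p = 4.18e-06). Disp2 and Bglap3 rose by 1.22 and 1.32 in 67NR cells. Like Slc39a8, they did not pass the filter in 4T1 cells alone. Cd209c and Lrrc14b had log2 fold changes of -0.53 (adjusted p = 0.105) and 0.46 (adjusted p = 0.047) in 67NR cells and of -5.03 and -4.12 in 4T1 cells. The call of Lrrc14b in 67NR cells was kept in 2 of 8 fits that left out 1 sample.

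Under the same conditions the largest negative interactions were those of Ccn2, Dlk2, Sned1, Ccl7 and Col7a1. Sned1, a matrix protein gene, fell from 26.2, 33.5, 27.8 and 37.0 CPM to 14.3, 3.08, 3.29 and 10.8 CPM in 67NR cells (log2 fold change -2.25, adjusted p = 0.00836) and had a log2 fold change of 1.48 in 4T1 cells (interaction -3.74, limma-voom adjusted p = 6.25e-04). Col7a1, the collagen of anchoring fibrils, fell from 46.7, 56.3, 63.4 and 111 CPM to 7.34, 8.00, 4.77 and 27.4 CPM (log2 fold change -2.80, adjusted p = 0.00563), against 0.57 in 4T1 cells (interaction -3.37, limma-voom adjusted p = 6.07e-04). CIX sample 14 lay above the other CIX samples in Col7a1, yet below each vehicle sample. For Ccn2 the log2 fold changes were -3.27 and 1.16 (interaction -4.45, limma-voom adjusted p = 1.65e-04). Dlk2 did not pass the filter in 67NR cells, where it was at 0.538 to 1.35 CPM with vehicle and at 0.0867 to 0.787 CPM with CIX, and it rose by 1.77 in 4T1 cells.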

How the data were processed

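Libraries were made with the TruSeq Stranded mRNA kit and sequenced as single reads. Per the labels and the study's methods, the authors quantified transcripts with Salmon (version 0.12 in the submitters' processing notes) and summed them to genes of the Ensembl annotation of GRCm38, and they deposited estimated counts, which are not normalized. The deposited table holds 33072 genes, of which 32832 were found in the mouse annotation used for names and coordinates (GRCm38). The gene lists and members described here were chosen with earlier results of these data known.

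Expected counts were rounded, scaled by TMM and tested with limma-voom (limma 3.58.1, edgeR 4.0.16, R 4.3.3), with CIX against vehicle fitted on the 8 67NR samples and the difference between the cell lines on all 16 samples. Genes with an approximate TPM below 1 in more than 3 of the 8 samples of a line were left out, and the difference between the lines was tested on genes that passed in at least 1 line. P-values were adjusted by Benjamini-Hochberg over all genes tested, with thresholds of 0.001, as in the study, and 0.05. Genes were named as the 12 largest changes in each direction among genes called at 0.001 with groups apart and a mean of at least 5 CPM, up to 5 members of each list with the smallest adjusted p and up to 4 defining members, Pla2g4a and Ptgs2, and the 5 largest interactions in each direction. Alternatives were edgeR's quasi-likelihood test, DESeq2 (1.42.0), other scalings and filters, a fit of all 16 samples, sample weights, 1 surrogate variable (sva 3.50.0), limma on log2(TPM + 1) and fits without each sample. Promoter windows were taken from RefSeq (GRCm38.p6). The authors' own lists of changed genes and the other assays were not used here. A few genes are not reported here.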

Additional observations from a re-analysis of the deposited data

Results flagged for a closer look

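Over the named genes, 27 of 368 groups of 4 samples had 1 sample far from the others by Dixon's test, where chance gives about 1 in 20, or 18.4. The values of that sample and the range of the other 3 samples of its group are given here without a cause, which was not tested. Vehicle sample 1 was highest in Cd68 at 11.9 CPM (others 7.64 to 8.34) and Mcm5 at 262 CPM (others 221 to 227). Vehicle sample 5 was highest in Brip1 at 37.5 CPM (others 27.0 to 27.8), Dnajb1 at 89.4 CPM (others 71.0 to 73.6) and Isg15 at 6.97 CPM (others 5.64 to 5.79), and lowest in Ifit3 at 8.23 CPM (others 8.60 to 8.62). Vehicle sample 9 was lowest in Ern1 at 44.0 CPM (others 47.3 to 47.6) and Srsf7 at 137 CPM (others 145 to 146). Vehicle sample 13 was highest in Bax at 342 CPM (others 192 to 216), Hsp90b1 at 5349 CPM (others 1119 to 1682), Itgb7 at 44.0 CPM (others 26.4 to 29.2), Mcm2 at 719 CPM (others 202 to 228), Pla2g4a at 342 CPM (others 60.6 to 82.0) and Pola1 at 184 CPM (others 124 to 131), and lowest in Cp at 211 CPM (others 244 to 248) and Tinagl1 at 293 CPM (others 354 to 366). CIX sample 2 was highest in Cdt1 at 109 CPM (others 90.0 to 92.9), Ogn at 4.08 CPM (others 1.79 to 2.13), Pcna at 289.6 CPM (others 199 to 210.3), Rrm2 at 123 CPM (others 79.3 to 84.0) and Tinagl1 at 139 CPM (others 106 to 110.4), and lowest in Itga5 at 184 CPM (others 249 to 255). CIX sample 10 was highest in Dlk2 at 0.787 CPM (others 0.0867 to 0.167), and lowest in Hnrnpa2b1 at 549 CPM (others 622 to 636), Ifi27 at 68.8 CPM (others 84.5 to 87.4) and Loxl3 at 83.8 CPM (others 119 to 121). CIX sample 14 was highest in Col7a1 at 27.4 CPM (others 4.77 to 8.00).

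For 49 named genes the response to CIX differed between 67NR and 4T1 cells at an adjusted p below 0.001 in the interaction fit of limma-voom, given here as the response in 67NR cells minus that in 4T1 cells on the log2 scale. Among genes of the cell cycle and replication it was -1.88 for Birc5, -1.82 for Ccna2, -0.97 for Cdk1, -1.56 for Foxm1, -1.70 for Plk1, -2.15 for Lig1, -2.19 for Tk1, -1.15 for Atad2 and -1.16 for Recql4. Among lipid genes it was 0.86 for Fads1, 1.10 for Fdft1, 1.45 for Lss, 1.74 for Mvd, 0.74 for Scd1 and -0.84 for Ptgs1. Among genes of interferon and Toll-like receptor signaling and attractants it was 1.45 for Ifi27, 3.22 for Isg15, 1.40 for Stat2, 2.60 for Tlr3, -1.25 for Irf3, -3.60 for Ccl7 and 4.50 for Cd209c. Among genes of matrix, adhesion and YAP signaling it was -1.85 for Ankrd1, -4.45 for Ccn2, -1.27 for Crim1, -3.37 for Col7a1, -3.74 for Sned1, -1.57 for Loxl3, -2.12 for Pcolce, -1.37 for Sparc, 3.22 for Mmp10, -1.71 for Itgb4, -0.66 for Vim and -1.86 for Cavin2. In the other genes it was -1.20 for Bcl2, 4.66 for Bglap3, 4.50 for Cd209c, 0.88 for Clip4, 5.23 for Disp2, -3.76 for Dlk2, 0.77 for Dnaja1, -1.51 for Dusp1, 2.68 for Hmox1, 3.06 for Lgi2, 4.58 for Lrrc14b, -2.34 for Nqo1, -1.39 for Pck2, 0.76 for Slc2a1, 6.11 for Slc39a8 and 1.25 for Sox4. Bglap3, Ccl7, Disp2, Lgi2 and Slc39a8 did not pass the filter on low values in 4T1 cells alone, and Dlk2 did not pass it in 67NR cells.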

How the results depend on the processing

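The 45 genes called in 67NR cells at 0.001 became 1041 with DESeq2, 151 in a fit of all 16 samples, 247 with sample quality weights, 72 with 1 surrogate variable and 27 with limma on log2(TPM + 1), and 2056 genes were called at 0.05. With edgeR's quasi-likelihood test 46 were called, and with the filters and scalings tried between 34 and 47. In all of these settings and without any 1 sample, the 45 genes kept their direction and an adjusted p below 0.05. Leaving out 1 sample gave 0 to 75 genes at 0.001, with 3237 to 3395 at an unadjusted p below 0.05 where the count was 0, and 1250 to 2197 at 0.05. For the difference between the lines, 993 genes became 1981 with DESeq2 and 3701 at 0.05, and leaving out 1 sample gave 654 to 1048 at 0.001 and 3225 to 3890 at 0.05, the lowest count at 0.001 without 4T1 vehicle sample 7. The cause of these shifts was not tested. No called result changed direction, while list medians close to 0 (YAP targets, matrix, glycolysis) changed sign without single samples. Over the log2 fold changes of named genes, 1895 values under the alternatives kept their side of the threshold, 423 fell short of it and 6 newly passed it. A further 15 values, of genes that were tested and not called, changed sign. Without 1 sample the counts ranged from 34 to 37 genes that fell for S phase, 16 to 24 for mitosis and 8 to 10 for ER chaperones, and from 15 to 17 that rose for cholesterol, 9 to 16 for ATF4 and 9 to 13 for immediate early genes. The fit of all 16 samples moved the list counts from 16 to 10 that rose for cholesterol, 15 to 10 for ATF4 and 7 to 3 for glycolysis, and from 10 to 4 that fell for interferon-stimulated genes and 14 to 8 for splicing. With 1 surrogate variable 27 ribosomal protein genes rose in place of 14, and 7 respiratory chain genes fell in place of 3, as with sample quality weights. Smaller lists with up to 6 called members moved by over 1.5 times in some settings as well. No paired analysis was run, because the groups compared share no replicate numbers and no label names pairs of samples. With 4 samples a group, 1 dose and 1 time point, calls near the threshold depend on single samples, and transcripts of low level carry few reads. The alternatives without vehicle sample 13 and without CIX sample 10 for the counts of list members were chosen after seeing the data.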

Other observations

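Genes outside the lists changed at 0.05 as well, and those named here were chosen after their values were seen. Brip1, a helicase that works with BRCA1, the checkpoint kinase Chek1 and its mediator Clspn had log2 fold changes of -1.03 (adjusted p = 0.00564), -1.09 (adjusted p = 0.0143) and -0.88 (adjusted p = 0.00369). Exo1, a DNA exonuclease, Recql4, a helicase, Ncapg2, of condensin II, and Atad2, a chromatin ATPase, were called at 0.001 in 67NR cells, with log2 fold changes from -0.95 to -0.65. For Recql4 and Atad2 the response differed from that of 4T1 cells, where the log2 fold changes were 0.30 and 0.50 (interaction limma-voom adjusted p = 1.65e-05 and 3.97e-05).

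The histone demethylase genes Kdm5b and Kdm6b rose, from 4.78 ± 0.699 CPM to 11.5 ± 2.01 CPM after CIX and from 25.4 ± 6.40 CPM to 55.2 ± 13.8 CPM after CIX (SD, n = 4; log2 fold changes 1.25 and 1.12, limma-voom adjusted p = 0.00289 and 0.0118). The Notch ligand genes Dll1 and Jag1 rose by 1.37 (adjusted p = 0.00329) and 1.16 (adjusted p = 0.0195), the latter not called without vehicle sample 1 (adjusted p = 0.0588). Upp1, a uridine phosphorylase, rose from 32.5, 28.4, 29.4 and 34.2 CPM to 63.7, 71.4, 68.4 and 66.6 CPM (log2 fold change 1.12, adjusted p = 3.20e-04), and Cavin2, of the coat of caveolae, fell from 55.1, 57.9, 54.5 and 49.6 CPM to 27.0, 27.2, 26.4 and 24.4 CPM (log2 fold change -1.05, adjusted p = 3.20e-04). In each of these 2 genes the CIX and vehicle samples did not overlap.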
